A study of Mus musculus with 8 samples.

Results

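The results concern 10 genes that encode alveolar and luminal transcription factors of the mammary epithelium, out of 19505 genes measured: Elf5, Ehf, Elf3, Nfib, Cebpb, Id2, Klf5, Grhl2, Ovol1 and Tfcp2l1. They were chosen by gene symbol, and each of the 10 was read from a single probe set, a group of array probes summarised to 1 value. Expression was measured on 8 Affymetrix arrays of luminal cells, the inner epithelial layer of the gland that makes milk, sorted from mice on day 15 of pregnancy. There were 4 arrays labelled a3a6KO and 4 labelled control. The KO name refers to the integrin chains alpha 3 and alpha 6, laminin receptors encoded by Itga3 and Itga6, and the labels describe the replicates as biological. In the sample titles of the knockouts DKO is joined to Ctrl, and the groups follow the cell subtype label, which names a3a6KO alone. The strain, the age in weeks, the Cre line and the deleted parts of the genes are not stated in the labels.

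During pregnancy, prolactin acts through Jak2 and Stat5 to turn luminal progenitors into milk-secreting alveolar cells. Elf5, an Ets family factor induced in this process, is required in mice for alveolar differentiation, and Stat5, Elf5, NFI and C/EBP proteins act together at milk protein genes. Grainyhead, Ovol and epithelial Ets factors keep junction genes on and mesenchymal genes off in many epithelia.

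Elf5 is shown with its upstream sequences because it has 2 transcription starts in RefSeq (GRCm38.p6), while its probe set is annotated to 2 transcripts together, so a change of start could not be seen in its level. Which start belongs to which transcript is not given in the tables used. The 250 bases before each start are printed 5′ to 3′ on the plus strand, chr2:103411848-103412097 for the first and chr2:103423818-103424067 for the second. Tfcp2l1 (chr1:118627695-118627944, plus strand) is printed beside them as the member with the smallest unadjusted p in the comparison of the groups. Capitals mark the letters TTGCNNAA, a C/EBP-type motif.
Elf5 start 1: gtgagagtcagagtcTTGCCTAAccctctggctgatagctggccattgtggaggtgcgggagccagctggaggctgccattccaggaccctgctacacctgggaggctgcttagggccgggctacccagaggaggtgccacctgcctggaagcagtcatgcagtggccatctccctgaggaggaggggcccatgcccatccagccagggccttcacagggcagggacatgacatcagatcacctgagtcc
Elf5 start 2: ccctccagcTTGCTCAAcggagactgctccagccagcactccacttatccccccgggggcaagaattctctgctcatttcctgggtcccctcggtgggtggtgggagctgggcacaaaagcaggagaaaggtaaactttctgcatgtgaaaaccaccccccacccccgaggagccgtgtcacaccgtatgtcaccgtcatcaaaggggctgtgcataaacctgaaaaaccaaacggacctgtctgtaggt
Tfcp2l1: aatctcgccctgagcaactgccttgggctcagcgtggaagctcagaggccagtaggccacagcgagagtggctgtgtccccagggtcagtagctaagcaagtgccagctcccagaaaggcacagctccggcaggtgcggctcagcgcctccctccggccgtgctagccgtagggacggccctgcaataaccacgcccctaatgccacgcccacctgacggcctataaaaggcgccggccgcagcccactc

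The 250 bases were searched on either strand for 4 letter patterns, which overlapped nowhere in the printed windows: TTGCNNAA (C/EBP), GGAAGT (Ets), AACCNGTT (Grainyhead) and TTCNNNGAA (Stat). The RefSeq table held promoters of 5 of the 10 members (Elf5, Elf3, Cebpb, Id2 and Tfcp2l1), 6 windows in all. TTGCNNAA occurred at -235 to -228 of the first Elf5 start and at -241 to -234 of the second, where 9.56% of the 32851 promoters in the table hold it. None of the 4 patterns occurred in the windows of Elf3, Cebpb, Id2 or Tfcp2l1. Over all promoters, GGAAGT occurred in 19.7%, TTCNNNGAA in 7.02% and AACCNGTT in 1.79%. These matches describe the letters only.

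The targeted gene Itga6 was below every control on all 4 a3a6KO arrays, but unevenly so. It stood at 5.95, 3.65, 8.21 and 7.85 (log2) on a3a6KO 1 to 4, against 8.83, 8.73, 9.14 and 8.80 on control 1 to 4. Itga3 stood at 5.11, 4.34, 5.55 and 5.60 on a3a6KO 1 to 4, against 6.72, 6.30, 5.37 and 7.27 on control 1 to 4, and neither gene passed in limma (adjusted p = 0.944 for each). Itga3 exceeded background on 0 a3a6KO arrays and 1 control array, so the size of its difference is uncertain. For Itga6, arrays a3a6KO 3 and 4 thus lay much nearer to the controls than a3a6KO 1 and 2, though still under the lowest control value, and the members and main lists are also given without them. The cells carried the luminal label in their transcripts: all 9 measured luminal markers, among them the keratin genes Krt8 and Krt18, exceeded background on every array. Background here is the 95th percentile of the negative control sets of the same array. Of 14 basal and myoepithelial markers, 13 had lower means in a3a6KO and 0 passed the threshold, against 0% of all genes. The remaining marker, Vim, had a higher mean (0.94, SE 0.76), and the myoepithelial gene Acta2 differed by -0.56 (SE 0.71). At an unadjusted p under 0.05 in limma, 4 of the 14 passed, against 5.13% of all genes: Krt5 (-2.54), Trp63 (-2.43), Krt14 (-1.60) and Myl9 (-1.06), the last chosen after its values were seen. The groups did not overlap in 1 of them, Trp63, which exceeded background on 1 array, against 2.94% of all genes. The median was -0.59, and -1.23 without a3a6KO 3 and 4. Their mean level ranged over 5.42 to 7.20 in a3a6KO and 5.94 to 7.73 in control, the highest arrays being a3a6KO 3 and control 4, which also had the highest endothelial marker levels. The basal keratin gene Krt14 exceeded background on every array. The mean deviation of the basal markers on each array (basal marker score) was also used as a covariate. Itga6 then differed by -1.89 (SE 0.94) and Itga3 by -0.86 (SE 0.41), against -2.46 and -1.265 without it. Of the endothelial, fibroblast, leukocyte and adipocyte markers 0 passed, and 2 of 7, 6 of 7, 4 of 5 and 4 of 5 in that order exceeded background on no array. Among them only Fabp4, listed as an adipocyte marker, exceeded background on every array, at a mean of 10.30 (log2). Of 10 early response genes that tissue dissociation induces, 8 had lower means in a3a6KO and 0 passed, with a mean level of 8.90 to 9.62 in a3a6KO and 9.21 to 9.74 in control, lowest on a3a6KO 3. In such bulk samples, fewer cells of a type and less RNA per cell cannot be told apart.

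None of the 10 transcription factor genes differed between the groups past the threshold. The test was limma, at a Benjamini-Hochberg adjusted p under 0.05. limma fits a linear model to each gene and draws the spread of each gene towards a value estimated from all genes. It called 0 of the 10 members and 0% of the 19505 genes. At an unadjusted p under 0.05 in limma, 1 of the 10, Tfcp2l1, passed, against 5.13% of all genes. The ranges of the groups failed to overlap in 0 of the 10, against 2.94% of all genes, and 0 of the 10 differed by 1 log2 unit or more, against 1.51%. Means were higher in a3a6KO for 6 members and lower for 4, and the median difference was 0.09 (log2, a3a6KO minus control), against -0.0025 over all genes. Without a3a6KO 3 and 4 the median was 0.27, and again 0 members passed. With 4 against 4 arrays the smallest possible exact permutation p is 0.0286.

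**Figure D1:**
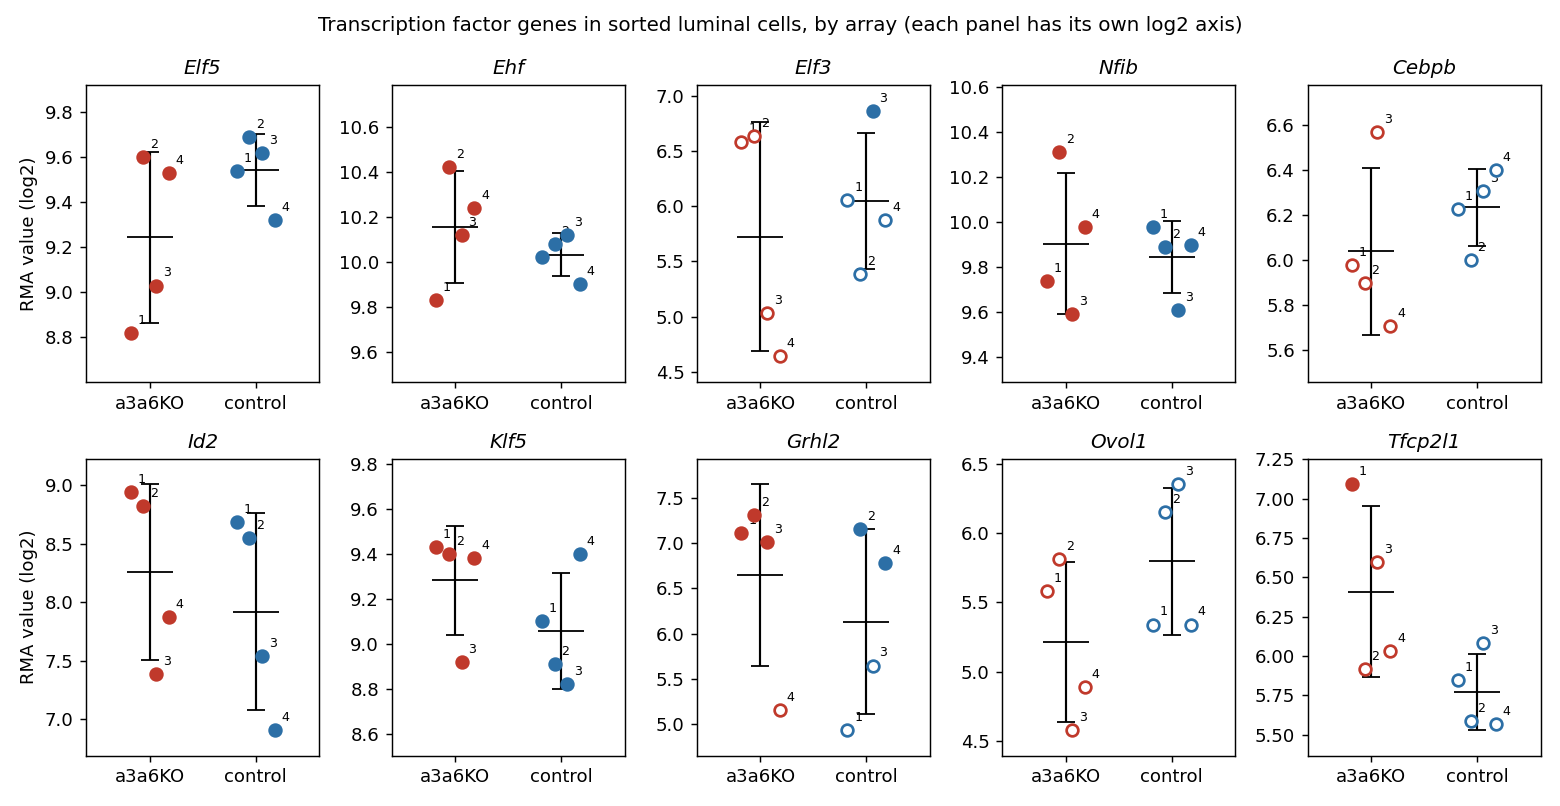
Each panel plots 1 gene, with the RMA value (log2) of every array on its own vertical axis, a3a6KO on the left in red and control on the right in blue. Bars give the mean ± SD (n = 4), digits the replicate number, and open circles values below the array's background; in every panel the points of the groups overlap.

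Of the Ets factors, Elf5 had a lower mean in a3a6KO, and the difference was within the spread between arrays. Elf5 stood at 8.82, 9.60, 9.03 and 9.53 on a3a6KO 1 to 4, against 9.54, 9.69, 9.62 and 9.32 on control 1 to 4. Arrays a3a6KO 1 and 3 lay below every control, while a3a6KO 2 and 4 lay within the control range. The mean was 9.25 ± 0.38 in a3a6KO and 9.54 ± 0.16 in control (SD, n = 4 each), a difference of -0.30 (SE 0.21, limma adjusted p = 0.95, exact permutation p = 0.20, two-sided). The 95% interval ran from -0.78 to 0.18, or 0.583-fold to 1.14-fold, so a fall to 0.583-fold lies within the interval. Without a3a6KO 3 and 4 the difference was -0.33.

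Ehf, an epithelial Ets factor whose gene is the neighbouring coding gene of Elf5 on chromosome 2, had the smallest within-group SD of the members. Its values were 9.83, 10.42, 10.12 and 10.24 on a3a6KO 1 to 4, against 10.02, 10.08, 10.12 and 9.90 on control 1 to 4. The a3a6KO values reached both above and below the control range. The difference was 0.12 (SE 0.17, limma adjusted p = 0.966), with a 95% interval of -0.26 to 0.51, or 0.833-fold to 1.42-fold. Without a3a6KO 3 and 4 the difference was 0.095. The within-group SD, 0.19, lay at percentile 12.2 of all 19505 genes.

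Elf3, an Ets factor of many epithelia, split the a3a6KO arrays. It stood at 6.59, 6.64, 5.03 and 4.64 on a3a6KO 1 to 4, against 6.06, 5.39, 6.87 and 5.88 on control 1 to 4. Arrays a3a6KO 3 and 4, the same arrays on which Itga6 was nearer to the controls, lay below every control, and a3a6KO 1 and 2 lay within the control range. The difference was -0.33 (SE 0.50, limma adjusted p = 0.973) over all arrays and 0.57 without a3a6KO 3 and 4 (limma adjusted p = 0.916), so its sign rested on those arrays. Elf3 exceeded background on 1 array, control 3, so its levels were measured within the range of the negative control sets.

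Of the factors that act with Stat5 at milk protein genes, neither Nfib nor Cebpb passed the threshold. Nfib, a nuclear factor I gene, stood at 9.74, 10.31, 9.59 and 9.98 on a3a6KO 1 to 4, against 9.98, 9.89, 9.61 and 9.90 on control 1 to 4. Array a3a6KO 2 lay above every control, a3a6KO 3 just below every control and the other 2 within the control range. The difference was 0.06 (SE 0.20, limma adjusted p = 0.984), with a 95% interval of -0.38 to 0.50, or 0.769-fold to 1.41-fold. It was 0.18 without a3a6KO 3 and 4 and -0.075 without a3a6KO 2.

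Cebpb encodes a bZIP factor that mouse mammary ducts and alveoli need to develop. It stood at 5.98, 5.90, 6.57 and 5.71 on a3a6KO 1 to 4, against 6.23, 6.0, 6.31 and 6.40 on control 1 to 4. On 3 a3a6KO arrays it lay below every control, and on a3a6KO 3 above every control. The difference was -0.20 (SE 0.21, limma adjusted p = 0.954, exact permutation p = 0.371), and -0.37 without a3a6KO 3. Without a3a6KO 3 and 4 together it was -0.29. Cebpb exceeded background on 0 arrays, and its 95% interval ran from 0.627-fold to 1.22-fold. The highest basal marker level of the a3a6KO arrays was also on a3a6KO 3, and with the basal marker score as a covariate the difference was -0.03. The part of basal cells in the Cebpb values was not tested.

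Id2, an inhibitor of E proteins that itself binds no DNA and is needed for alveolar growth in mice, varied widely within each group. It stood at 8.94, 8.82, 7.39 and 7.87 on a3a6KO 1 to 4, against 8.68, 8.55, 7.54 and 6.91 on control 1 to 4. In each group arrays 1 and 2 were high and arrays 3 and 4 low. The lowest of each group, a3a6KO 3 and control 4, had the highest basal and endothelial marker levels. The basal level did not follow Id2 on every array. It was 7.07 on control 2, where Id2 was at 8.55, and 5.94 on control 3, where Id2 was at 7.54. The part of other cell types in this was not tested. The difference was 0.34 (SE 0.47, limma adjusted p = 0.966, exact permutation p = 0.543). It was 0.96 without a3a6KO 3 and 4 and -0.13 with the basal marker score as a covariate, with neither past the threshold. Its within-group SD of 0.80 lay at percentile 92.8 of all genes.

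Klf5, a zinc finger factor of proliferating epithelium, was nearly level on 3 of the a3a6KO arrays. It stood at 9.43, 9.40, 8.92 and 9.38 on a3a6KO 1 to 4, against 9.10, 8.91, 8.82 and 9.40 on control 1 to 4. Only a3a6KO 1 lay above every control, and by a small margin. The difference was 0.23 (SE 0.20, limma adjusted p = 0.95, exact permutation p = 0.257), with a 95% interval of 0.862-fold to 1.59-fold. It was 0.36 without a3a6KO 3 and 4.

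Grhl2, the Grainyhead factor that keeps E-cadherin and claudin genes on in epithelia, spread over more than 2 log2 units in each group. It stood at 7.11, 7.31, 7.01 and 5.16 on a3a6KO 1 to 4, against 4.94, 7.16, 5.65 and 6.78 on control 1 to 4. A low array in a3a6KO and 2 low arrays in control carried the spread, and the ranges overlapped. The difference was 0.52 (SE 0.59, limma adjusted p = 0.956), and without single arrays it ranged from 0.12 (without control 1) to 1.01 (without a3a6KO 4). Without a3a6KO 2 it was 0.29, and without a3a6KO 3 and 4 together 1.08, and it passed in none of these fits. Grhl2 exceeded background on 3 a3a6KO arrays and 2 control arrays. Its within-group SD of 1.01, at percentile 97.1 of all genes, was the widest of the members, and its 95% interval reached from 0.569-fold to 3.59-fold.

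Ovol1, a zinc finger repressor of mesenchymal genes, had the most negative difference of the members. It stood at 5.58, 5.81, 4.58 and 4.89 on a3a6KO 1 to 4, against 5.34, 6.15, 6.35 and 5.34 on control 1 to 4. As for Elf3, a3a6KO 3 and 4 lay below every control while a3a6KO 1 and 2 lay within the control range. The difference was -0.58 (SE 0.34, limma adjusted p = 0.946, exact permutation p = 0.20), and -0.10 without a3a6KO 3 and 4. Ovol1 exceeded background on 0 arrays.

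Tfcp2l1, a factor of the CP2 and Grainyhead family best known from mouse embryonic stem cells, had the most positive difference. It stood at 7.09, 5.92, 6.60 and 6.03 on a3a6KO 1 to 4, against 5.85, 5.59, 6.08 and 5.57 on control 1 to 4. Arrays a3a6KO 1 and 3 lay above every control, and each of the other 2 lay above 3 of the 4 controls. The difference was 0.64 (SE 0.27), with a 95% interval of 0.02 to 1.25, an unadjusted p of 0.0440 and an adjusted p of 0.944 in limma, and an exact permutation p of 0.0857. It was 0.41 without a3a6KO 1, 0.80 without a3a6KO 2 and 0.73 without a3a6KO 3 and 4, none past the threshold. Tfcp2l1 exceeded background on 1 array, a3a6KO 1, so the size of the difference is uncertain.

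**Figure D2:**
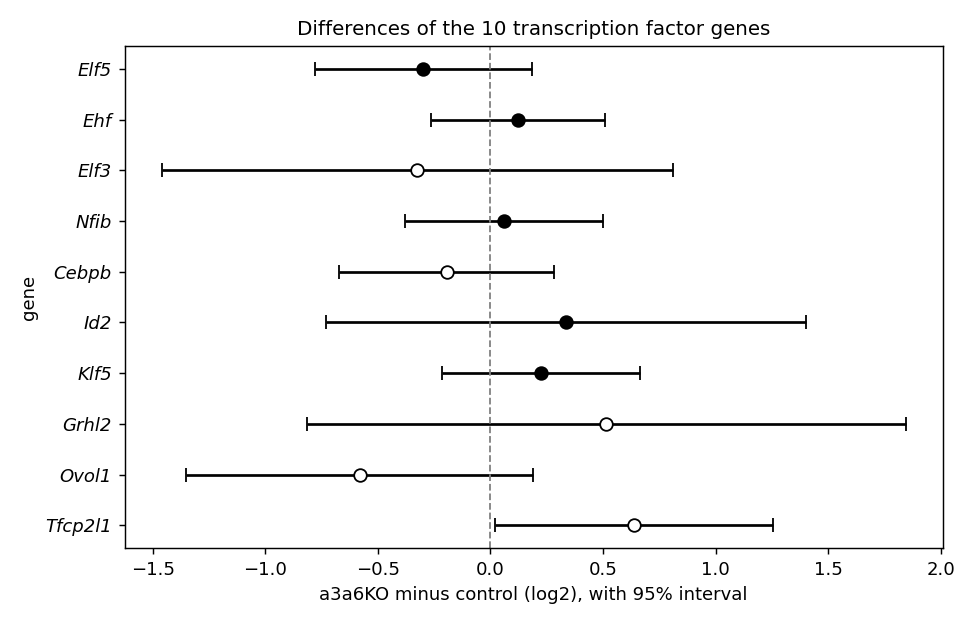
The horizontal axis gives the difference a3a6KO minus control (log2) of each gene with its 95% interval from limma, and genes run down the page. Filled points mark the 5 genes above background on every array; 9 of the 10 intervals include 0, and that of Tfcp2l1 starts at 0.02.

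Array by array, the members did not move as 1 block. In a3a6KO 3 and 4, Elf3, Ovol1 and Id2 were all below their means over the 8 arrays, with Elf3 deviating by -0.86 and -1.25, whereas in a3a6KO 1 and 2 all of these genes were above them. The order did not follow the groups, since control 3 had the highest Elf3 (0.98 above its mean) and Ovol1 (0.84) of all arrays. Control 1 had the lowest Grhl2, at -1.45, with the remaining members within 0.59 of their means. Elf5, Ehf, Nfib, Cebpb and Klf5 deviated by at most 0.57 from their means on any array.

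**Figure D3:**
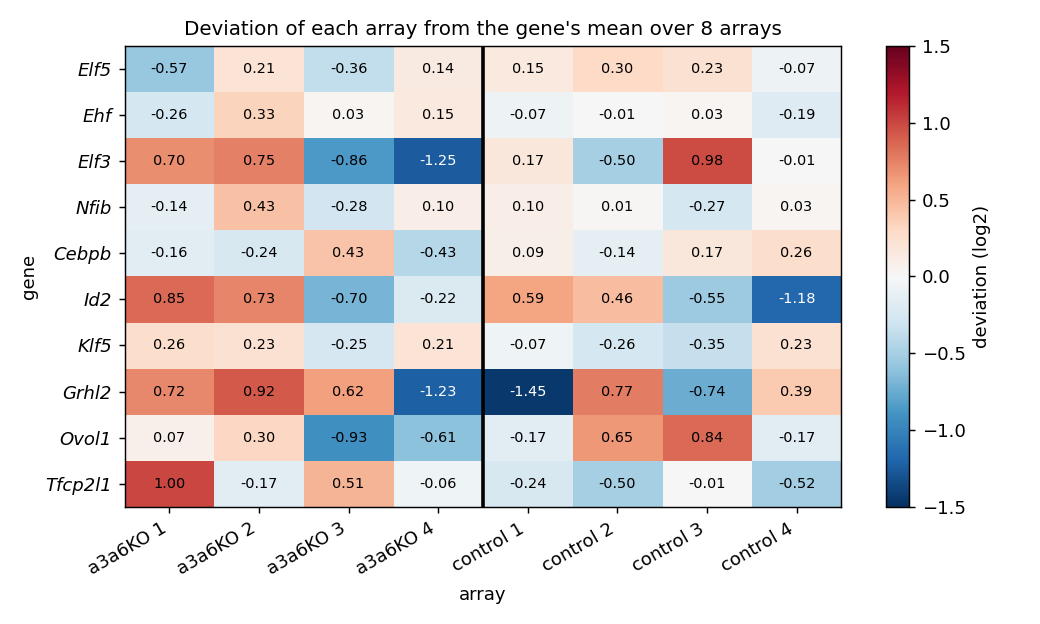
Rows are genes, columns the 4 a3a6KO arrays and then the 4 control arrays, and each cell gives the deviation (log2) of that array from the gene's mean over 8 arrays, red for above and blue for below. Elf3, Id2, Grhl2, Ovol1 and Tfcp2l1 hold the strongest cells, and Elf5, Ehf, Nfib, Klf5 and Cebpb stay pale, at 0.57 or less.

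Correlations were computed for the 45 pairs of members over the 8 arrays, and 0 passed after Benjamini-Hochberg adjustment over the 45 (smallest adjusted p = 0.75 by Pearson and 0.899 by Spearman, exact permutation). The smallest unadjusted p belonged to Elf5 and Tfcp2l1 (Pearson r = -0.84, exact permutation p = 0.0167, adjusted p = 0.75; Spearman rho = -0.48, exact permutation p = 0.243, adjusted p = 1). Without a3a6KO 1 and 3, the arrays farthest from the Elf5 median, r was 0.32, so the relation rested on those arrays. Elf3 and Ovol1 gave r = 0.68 (exact permutation p = 0.0640, adjusted p = 0.965) and rho = 0.73 (exact permutation p = 0.0467, adjusted p = 0.899), and r was 0.19 without a3a6KO 3 and 4.

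The neighbouring genes Elf5 and Ehf kept nearly 1 order of arrays within each group. In a3a6KO, either gene was lowest on array 1, then on 3 and 4, and highest on array 2, and in control either was lowest on array 4 and next on array 1. Over the 8 arrays r was 0.57 (exact permutation p = 0.137, adjusted p = 0.965) and rho 0.42 (exact permutation p = 0.304, adjusted p = 1), with r = 0.51 without a3a6KO 1 and 3. The deviations from the group means correlated at 0.93. This pair was singled out of the 45 after its values were seen, and the value describes these arrays only.

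**Figure D4:**
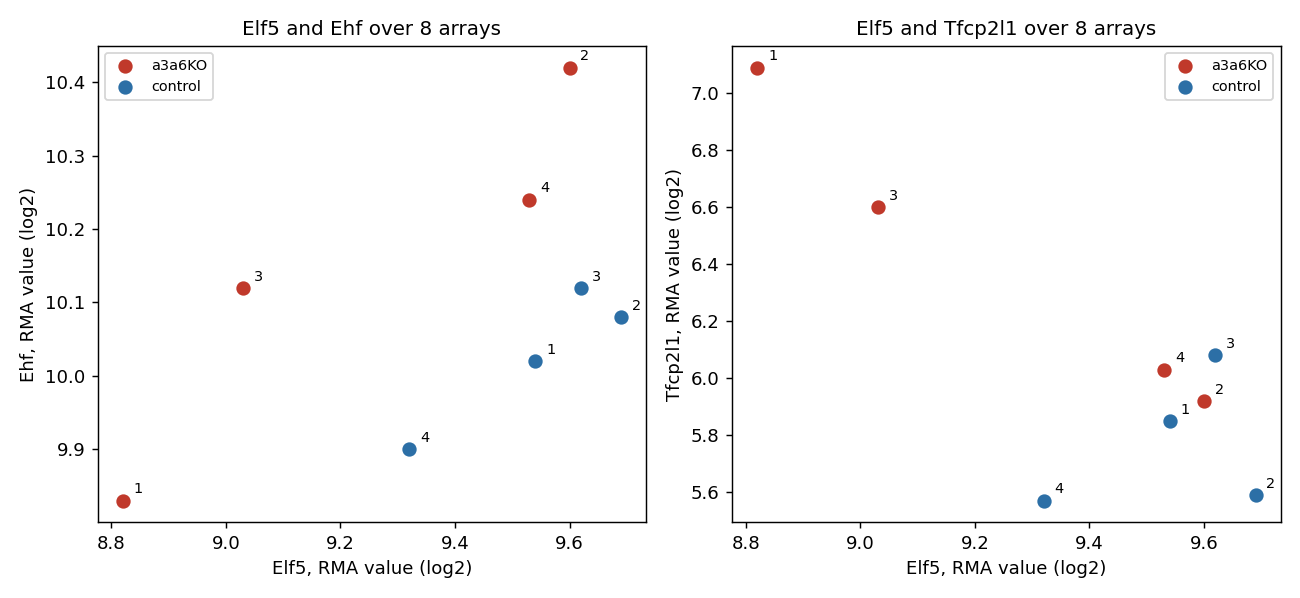
The horizontal axes give Elf5 and the vertical axes Ehf (left) or Tfcp2l1 (right), all as RMA values (log2), with 1 point per array, a3a6KO in red, control in blue and the replicate number beside it. On the left the points of each group rise from lower left to upper right; on the right, a3a6KO 1 and 3 stand apart from the other 6 arrays.

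The threshold was passed by 0% of all 19505 genes, and so by no relative of the 10 factors. Of 25 paralogs measured, 14 had higher and 11 lower means in a3a6KO, 0 passed in either direction in limma, and the median difference was 0.01 (-0.12 without a3a6KO 3 and 4), against -0.0025 over all genes. The Grainyhead gene Grhl1, above background on every array, differed by -0.02 (SE 0.22), the C/EBP gene Cebpd by 0.15 (SE 0.18) and the nuclear factor I gene Nfia by 0.25 (SE 0.23). Spdef, an Ets factor of secretory epithelia, differed by -0.72 (SE 0.46), above background only on control 3. Cebpa differed by 0.0050, Ovol2 by -0.03 and Id1 by 0.12, on 0 arrays above background, and Klf4 by -0.21 (SE 0.36).

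Other luminal and prolactin-pathway factors had lower means in a3a6KO in 10 of 13 members, with a median of -0.20 (-0.21 without a3a6KO 3 and 4). Of them 0 passed the threshold, against 0% of all genes. Stat5a, the main Stat of the prolactin receptor, differed by -0.31 (SE 0.33) and Stat5b by 0.19 (SE 0.22). Stat5a exceeded background on 1 a3a6KO array and 2 control arrays, and Stat5b on 2 a3a6KO arrays and 0 control arrays. The hormone receptor gene Esr1 differed by 0.02 and its pioneer factor gene Foxa1 by -0.16, and neither exceeded background on any array.

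Genes that these factors are known to act on did not pass either, with 0% of all genes past the threshold. Of 14 genes listed as targets of Stat5, Elf5 and their partners, mostly secretory genes, 13 had lower means in a3a6KO. Over all 19505 genes, 9773 had lower means. In this list 0 passed, and the median was -0.29 (-0.43 without a3a6KO 3 and 4). At an unadjusted p under 0.05 in limma, 6 of the 14 passed, against 5.13% of all genes. The groups did not overlap in 2 of them, Muc1 (-0.74) and Csn1s1 (-0.24), against 2.94% of all genes. The most negative difference was that of Cish, a Stat5-induced inhibitor of the pathway (-1.17, SE 0.35, unadjusted p = 0.00794 and adjusted p = 0.944 in limma), and these 3 genes were singled out after their values were seen. The mean level of the 14 was 9.11, 9.09, 9.20 and 9.46 on a3a6KO 1 to 4, against 9.65, 9.63, 9.68 and 9.72 on control 1 to 4, so the groups did not overlap in it. No share over all genes was computed for such a list mean, so how often one separates the groups is not known. The list was also chosen with earlier results of these data known. Elf5 was below every control on a3a6KO 1 and 3 (8.82 and 9.03). On a3a6KO 2 and 4 it was within the control range (9.60 and 9.53). The mean level of the 14 was lowest on a3a6KO 2, and a link with Elf5 was not tested. The casein genes Csn2 and Csn3 differed by -0.14 and -0.33, and the whey genes Wap and Lalba by -0.58 and -0.74.

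Of 13 epithelial genes regulated by Grhl2, 9 had higher and 4 lower means, and the median was 0.11 (0.12 without a3a6KO 3 and 4). Of them 0 passed, against 0% of all genes. E-cadherin (Cdh1) differed by 0.19 (SE 0.16), the claudin genes Cldn4 by -0.11 (SE 0.19) and Cldn7 by 0.13 (SE 0.14), and the splicing factor gene Esrp1 by 0.27 (SE 0.46). Cdh1, Cldn3, Cldn7 and Epcam are also among the 9 luminal markers. Of those 9, 8 had higher means and 1 lower, with a median of 0.11, and over all 19505 genes 9732 had higher means. On a3a6KO 4 and control 1, where Grhl2 was lowest, Cdh1 was at 9.33 and 9.04, against 9.13, 9.55 and 9.08 on a3a6KO 1 to 3 and 9.06, 9.24 and 9.01 on control 2 to 4. Of 9 mesenchymal factors, 5 had higher and 4 lower means, 0 passed, the median was 0.04 (-0.0075 without a3a6KO 3 and 4), and 7 exceeded background on 0 arrays. Snai2, which Elf5 represses in mouse mammary cells, stood at 4.70, 4.37, 7.17 and 4.91 on a3a6KO 1 to 4, against 5.39, 5.12, 4.48 and 6.41 on control 1 to 4. Its highest arrays in each group, a3a6KO 3 and control 4, were again those with the highest basal marker levels, and their part in this was not tested.

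**Figure D5:**
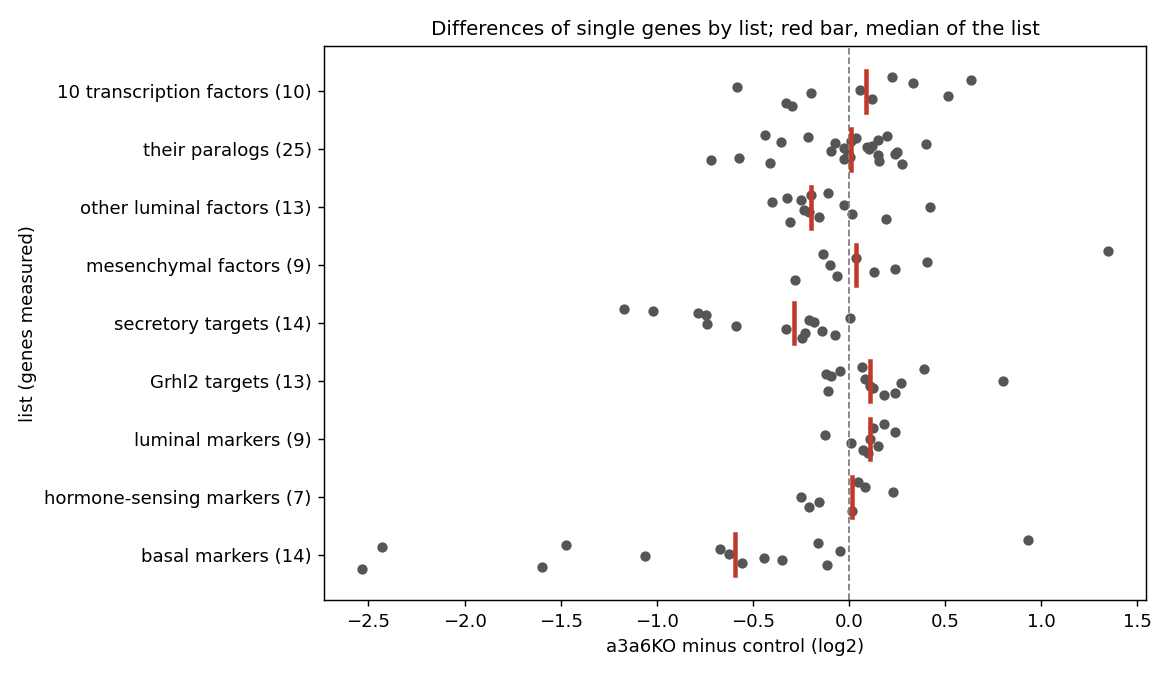
Each grey point is the difference a3a6KO minus control (log2) of 1 measured gene, rows are the gene lists with the number of genes measured, and red bars mark list medians. The 10 factors and their paralogs lie on either side of 0, with medians of 0.09 and 0.01, while secretory targets and basal markers lie mostly below 0, with medians of -0.29 and -0.59.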

How the data were processed

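The authors deposited 1 log2 value per probe set and array, made with Affymetrix Expression Console and RMA per the submitters' processing notes, with no versions given there. RMA corrects background, quantile normalizes the arrays and summarises probes, so a change common to most genes cannot be seen. Labels give 500 pg of total RNA per sample, amplified before labelling. The 28846 probe sets included 19572 with 1 symbol in GEO's platform annotation. Of several sets of a gene (55 genes) that of the highest mean was kept. limma 3.58.1 in R 4.3.3 (lmFit, eBayes, group as the only term) compared the groups over 19505 genes and gives the adjusted p-values of single genes. A run on simulated data checked only that the mean size of added changes was recovered. The share of added changes that it called is not reported here. The 10 members and the gene lists were chosen with earlier results of these data known. Single genes given with values came from a fixed list, apart from Vim, Fabp4, Myl9, Muc1, Csn1s1 and Cish, which were added for their values. Exact permutation tests (SciPy 1.17.1) were two-sided over 70 assignments of arrays. Depth has no counterpart on arrays, and their number limits the precision (median SE 0.234). Control sets marked negative in the identifiers gave the background. Of 155 listed genes, 142 were measured, and the others were not analysed here. Upstream sequences are from RefSeq, GRCm38.p6.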

Additional observations from a re-analysis of the deposited data

Results flagged for a closer look

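Among 24 groups of 4 arrays (the 10 factors, Itga6 and Itga3 in either group), 2 held an array far from the other 3 by Dixon's criterion, which chance meets in about 1 group in 20. Grhl2 was at 5.16 on a3a6KO 4, against 7.01 to 7.31 on the other a3a6KO arrays. Klf5 was at 8.92 on a3a6KO 3, against 9.38 to 9.43 on the others, though this value lay within the control range.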

How the results depend on the processing

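Alternatives were a replicate block, a trended robust prior, averaged probe sets, median centring, renewed quantile normalization, array weights, the basal marker score as a covariate, dim genes left out, each array left out in turn, and a3a6KO 3 and 4 left out together. limma called 0 genes under each, with 929 to 1141 of all 19505 genes at an unadjusted p under 0.05 (163 of 2608 with dim genes left out, which kept 5 of the 10 members). Of 165 values of the 10 members under alternatives, 158 kept their direction, and 0 passed the threshold (smallest limma adjusted p = 0.822). The other 7 turned in Elf3, Nfib and Id2, and the cause was not tested. With the basal marker score as a covariate, Nfib was -0.0098 and Id2 -0.13. Without a3a6KO 3 and 4, Elf3 was 0.57. Leaving out single arrays gave -0.63 to 0.037 for Elf3, -0.075 to 0.17 for Nfib and -0.0017 to 0.62 for Id2. The medians of the companion lists were computed without a3a6KO 3 and 4 after the data were seen; those of the basal markers (-1.23) and endothelial markers (-0.49) moved by more than the median within-group SD of the members. The median over the members ranged from -0.02 to 0.27. Over all genes, same-numbered samples did not deviate together (correlations of -0.06 to 0.04). These correlations cannot exclude a pairing, and the labels state none. Id2 was high on arrays 1 and 2 of each group, and its SE was 0.47, or 0.23 with the replicate block. With the replicate block, the count stayed 0, Elf5 was -0.30 (limma adjusted p = 0.951) and Tfcp2l1 0.64 (limma adjusted p = 0.942), and no call changed. Within the range of the negative control sets, where Elf3, Cebpb, Ovol1 and Tfcp2l1 mostly lay, the size of a difference is uncertain.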
